A study of Mus musculus with 30 samples.

Results

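The mitochondrial genome of the mouse carries 37 annotated genes, and all rows of the deposited tables placed on chromosome MT were taken, which gave 37 of 57133 genes. They are 13 genes for proteins of the respiratory chain, 2 genes for the rRNAs of the mitochondrial ribosome and 22 genes for tRNAs. No measured value entered this choice. The counts come from 30 libraries of whole mouse kidney, made from polyadenylated RNA. The libraries fall into 8 groups by genotype, sex and surgery, and the comparisons concern the transgenic genotype, sex and early injury. The transgenic (TG) genotype is named Gsta2-H2BeGFP in the labels and is set against wild type (WT). Without surgery there were 3 TG and 3 WT libraries of females and 3 TG and 3 WT libraries of males. The injured groups, 6 TG and 6 WT libraries of males, had nephrectomy plus ischemia-reperfusion injury (IRI), a stop and return of blood flow to the kidney, and were sampled 4 hours later. Their controls, 3 TG and 3 WT libraries of males, had nephrectomy alone (NX). No sampling time of the NX libraries is recorded in the annotation used here, so a difference in time cannot be told apart from injury. Age, strain background and the number of animals behind each library are not stated in the labels, so p-values cover only the variation among these libraries, which may be technical.

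Mitochondrial DNA is transcribed from both strands into long precursors, which are cut into mRNAs, rRNAs and tRNAs, often at the tRNA sequences that lie between the other genes. Most of the mRNAs receive short poly-A tails, and all proteins and factors that copy, cut, translate or degrade these RNAs are encoded in the nucleus. The proximal tubule and the thick ascending limb of the kidney are rich in mitochondria because their ion transport consumes much ATP. Tissue RNA cannot tell fewer cells of a type from less RNA per cell.

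Total counts were 49040915 to 66446450 in the 12 no-surgery libraries and 59574069 to 91354407 in the 18 NX and IRI libraries. The 2 tables were scaled and tested separately. Summed markers of the proximal tubule reached 9093 to 17320 CPM (counts scaled to 1000000 per library) over the libraries. EGFP, the reporter, had counts in all TG libraries and in none of the libraries labelled WT except replicate 1 of WT IRI, with 206 counts. Its 2.587 CPM of EGFP lay within the 1.187 to 6.344 CPM of the TG IRI libraries, so the WT label of this library is uncertain. Replicates are numbered from 0. Summed fat markers reached 663 CPM in WT NX replicate 0, and summed red cell markers reached 1298 CPM in WT IRI replicate 5. Results for mitochondrial genes that rest on these libraries are given with and without them. Counts of called markers and of nuclear lists use all libraries.

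Levels per kilobase of gene fell into tiers. The highest were mt-Co1, the catalytic subunit of cytochrome c oxidase, with a median of 22800 CPM per kb over the 30 libraries, and mt-Cytb, the cytochrome b of complex III, with 14490 CPM per kb. Genes of complex I (NADH dehydrogenase) followed, with 11870 CPM per kb for mt-Nd1, 9502 for mt-Nd4, 8762 for mt-Nd2, 6231 for mt-Nd5, 4512 for mt-Nd6 and 2041 for mt-Nd4l. The ranges over libraries of neighbours in this order overlapped. The rRNA genes lay lower, at 763.2 CPM per kb for mt-Rnr2, the large-subunit rRNA, and 755.2 for mt-Rnr1, the small-subunit rRNA, in libraries that were selected for poly-A. The lowest tier held mt-Co2 (55.63 CPM per kb) and mt-Co3 (43.02), the other mitochondrial subunits of cytochrome c oxidase, with mt-Atp6 (44.85), a subunit of ATP synthase, and mt-Nd3 (30.49), a subunit of complex I. The ATP synthase gene mt-Atp8 had 2.486 CPM per kb, and 0.4493 to 10.47 over the libraries.

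Of the 5 genes in the lowest tier, 4 have a near-identical annotated nuclear copy. The remaining gene, mt-Atp8, lies between mt-Co2 and mt-Atp6. Only annotated nuclear transcripts were searched, so a copy of mt-Atp8 in unannotated nuclear sequence was not looked for. The last 43 bases of mt-Atp8 are shared with mt-Atp6 and occur in its copy Gm10925. The copies of mt-Co2 and mt-Atp6 keep their order on chromosome 1, where Gm10925 ends at 24653732 and Gm28661 starts at 24653966. The sequence between these copies was not compared with mt-Atp8, so its value of 0% below covers annotated transcripts only. A block on the minus strand of chromosome 1 (GRCm39) holds 7 annotated copies of mitochondrial sequence. Among them, Gm28661 (chr1:24653966-24654646) is identical to the 681 bases it shares with mt-Co2, Gm10925 to 678 bases of mt-Atp6, Gm28437 to 783 bases of mt-Co3 and Gm10222 to 294 bases of mt-Nd4l. Gm28438 matches mt-Nd3 over 345 bases with 1 mismatch, Gm28439 is identical to the first 876 bases of mt-Nd4, and Gm29216 (chr1:24654787-24655278) matches the last 492 bases of mt-Co1 at 98.78%. Of all windows of 150 bases, the length of a read, 99.439% of mt-Co2, 99.436% of mt-Atp6, 99.843% of mt-Co3, 96.985% of mt-Nd3 and 97.973% of mt-Nd4l also occur letter for letter in annotated nuclear transcripts, against 59.154% of mt-Nd4, 23.639% of mt-Co1 and 0% of the other protein and rRNA genes. How reads that fit both places were counted is not stated in the sources used here, so the values of at least these 7 genes are uncertain. The copy Gm28438 had more counts than mt-Nd3 itself, with 25.16 ± 4.577 CPM against 11.55 ± 3.382 CPM for mt-Nd3 in WT IRI libraries (SD, n = 6).

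The stretches below show how little separates a gene from its copy. Capitals mark bases that differ between the members of a pair, and the sequences are from GENCODE M21 transcripts (GRCm38), whose positions for all 37 mitochondrial genes equal those of the deposited tables. In mt-Co1 (MT:5328-6872, plus strand) the first 60 bases of the matched part begin at base 1054 of the gene, and the substitutions, counted from the first base of mt-Co1 and written as gene base, position and copy base, are T1056A, C1057T, A1059G, A1060G, C1062A and A1066T. The pair of mt-Nd3 (MT:9459-9806, plus strand) differs by T3C, and the first 60 bases of mt-Co2 (MT:7013-7696, plus strand) and Gm28661 do not differ.
mt-Co1: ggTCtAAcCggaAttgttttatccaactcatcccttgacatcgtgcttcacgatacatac
Gm29216: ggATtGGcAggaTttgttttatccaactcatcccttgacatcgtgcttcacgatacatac
mt-Nd3: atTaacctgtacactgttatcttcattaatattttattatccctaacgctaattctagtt
Gm28438: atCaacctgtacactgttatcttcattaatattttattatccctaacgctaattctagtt
mt-Co2: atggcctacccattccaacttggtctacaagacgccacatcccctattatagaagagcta
Gm28661: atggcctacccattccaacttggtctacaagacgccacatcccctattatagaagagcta

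**Figure D1:**
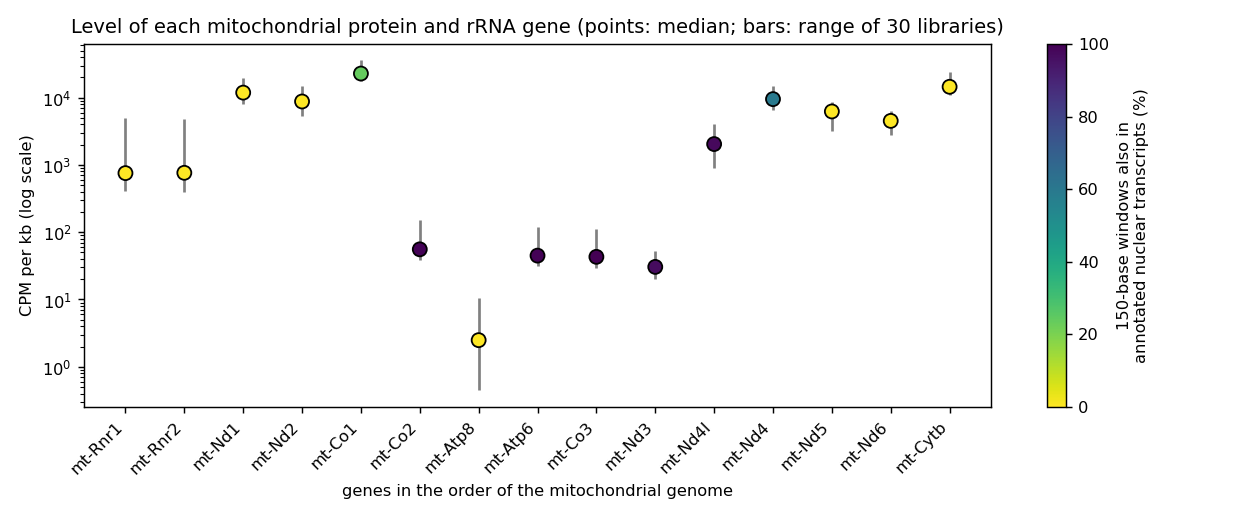
Median level of each mitochondrial protein and rRNA gene in CPM per kb on a log axis, in genome order, with bars for the range over 30 libraries and colour for the percent of 150-base windows that also occur in annotated nuclear transcripts. The genes mt-Co2, mt-Atp6, mt-Co3 and mt-Nd3, all above 96% shared, lie between 30.49 and 55.63 CPM per kb, while mt-Co1 lies at 22800. However, mt-Nd4l, shared to 97.973%, lies at 2041. Lowest is mt-Atp8 at 2.486, with 0% shared, for which unannotated nuclear sequence was not searched.

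Mitochondrial genes held 7.712 to 16.27% of all counts in a library, with a median of 10.19% over the 30. Shares per library were 8.84, 8.697 and 8.663% in TG females, 9.353, 9.163 and 7.712% in WT females, 11.51, 10.36 and 10.21% in TG males and 11.06, 10.72 and 10.3% in WT males, all without surgery. Female and male shares did not overlap in either genotype. After injury the lowest, median and highest shares were 9.524, 10.08 and 10.83% in TG IRI libraries and 10.13, 10.98 and 16.27% in WT IRI libraries. The 3 libraries of each NX group had 9.36, 8.639 and 9.505% in TG and 13.59, 8.529 and 10.69% in WT. IRI and NX shares did not overlap in TG and overlapped in WT. The 3 highest shares of all 30 libraries were 16.27% in WT IRI replicate 5, 15.02% in WT IRI replicate 4 and 13.59% in WT NX replicate 0, while the other 4 WT IRI libraries had 10.13 to 11.13%. The WT IRI mean of 12.34 ± 2.608% (SD, n = 6) was 12.65% without replicate 1, the library with EGFP counts.

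**Figure D2:**
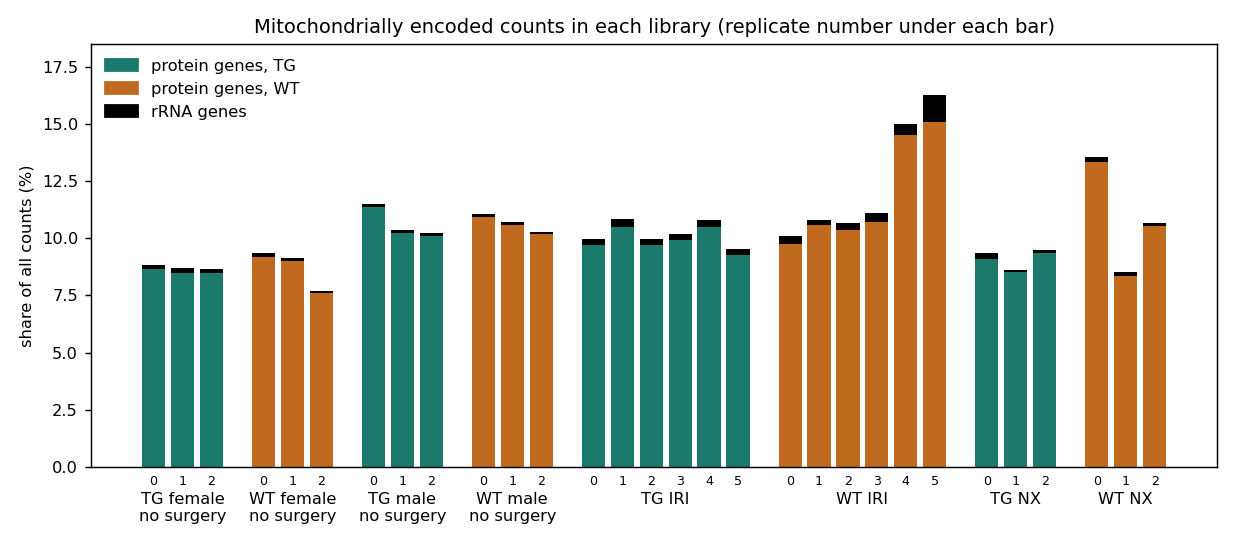
Share of all counts in each library that falls on mitochondrial protein genes (coloured by genotype) and rRNA genes (black), in percent, by group with the replicate number under each bar. WT IRI replicates 4 and 5 and WT NX replicate 0 stand above the rest at 15.02, 16.27 and 13.59%, and the black part is largest in WT IRI replicate 5.

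The libraries with high shares differed in what made them up. In WT IRI replicate 5 the rRNA genes held 7.293% of the mitochondrial counts, against 2.265 to 3.744% in the other WT IRI libraries, and 1.187% of all counts, against 0.2451 to 0.4958%. In WT NX replicate 0 the rRNA genes held 1.724% of the mitochondrial counts, between the 1.403 and 2.225% of the other WT NX libraries. In that library mt-Cytb had 24100 CPM, against 16090 and 18250 CPM in the other WT NX libraries, and WT IRI replicates 4 and 5 had 24890 and 27630 CPM, against 14990 to 18250 CPM in the other WT IRI libraries. So mt-Cytb was high in all 3 of these libraries, and the rRNA genes stood out in replicate 5 of WT IRI. The minus-strand gene mt-Nd6 had 2657 CPM in WT IRI replicate 5, against 2828 CPM in replicate 2 and 3297 CPM in replicate 4, the highest of the group. In replicate 5 of WT IRI the summed markers of thick ascending limb (6154 CPM), distal convoluted tubule (2751), collecting duct (689.6), podocyte (429.1), endothelium (381.1), neutrophil and macrophage (91.72) and red cell (1298) were also the highest of the group, and their part in its mitochondrial share was not tested. Summed proximal tubule markers in that library were 12200 CPM, the top of the group's range of 9980 to 12200.

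Without surgery, 6 mitochondrial mRNAs were lower in females than in males, and they were the same 6 in both genotypes. They were mt-Nd1, mt-Nd2, mt-Nd4, mt-Nd5 and mt-Nd6 of complex I and mt-Cytb of complex III, 6 of the 13 protein genes, all of which passed the filter on low counts. The edgeR quasi-likelihood test with Benjamini-Hochberg adjusted p under 0.05 called 6 lower and 1 higher of 20 tested mitochondrial genes in TG libraries, and 6 lower and 0 higher in WT libraries. Of all 19126 genes tested, 11.3% were lower in females in each genotype, 9.87% were higher in TG females and 10.1% in WT females. The median log2 difference of the 13 protein genes was -0.41 in TG and -0.40 in WT libraries, against 0.02 and 0.03 over nuclear genes.

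The largest of these differences was in mt-Nd5 (ENSMUSG00000064367, MT:11742-13565, plus strand), a proton-pumping subunit of complex I. It had 6257, 6918 and 6700 CPM in TG females, against 15100, 11910 and 11050 CPM in TG males. In WT it had 6900, 7093 and 5893 CPM in females, against 13710, 11940 and 10270 CPM in males. No female library of either genotype reached a male one, and females fell by 0.94 ± 0.13 in TG (log2, SE, adjusted p = 0.000369 in edgeR) and by 0.85 ± 0.13 in WT (adjusted p = 0.000627). Its neighbour mt-Nd6 (ENSMUSG00000064368, MT:13552-14070), the complex I subunit encoded on the minus strand, shares 14 bases with the end of mt-Nd5. The last 60 bases of mt-Nd5 are shown because the overlap, in capitals, is where a read cannot be given to a gene without strand.
mt-Nd5: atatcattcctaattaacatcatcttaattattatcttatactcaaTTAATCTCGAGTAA
The level of mt-Nd6 was 1660, 1557 and 1644 CPM in TG females, against 3177, 2439 and 2260 CPM in TG males, and 1874, 1736 and 1451 CPM in WT females, against 3031, 2468 and 2045 CPM in WT males. Again females lay below every male of their genotype, by 0.70 ± 0.15 in TG (log2, adjusted p = 0.00593) and 0.58 ± 0.15 in WT (adjusted p = 0.0165). The WT call was lost without WT female replicate 2 (adjusted p = 0.0619) or WT male replicate 0 (adjusted p = 0.0774).

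The level of mt-Nd2 (MT:3914-4951, plus strand), another membrane subunit of complex I, was 6814, 6125 and 6289 CPM in TG females, against 11320, 8879 and 9337 CPM in TG males, and it fell by 0.62 ± 0.13 (adjusted p = 0.00443). In WT it was 7182, 6837 and 5489 CPM in females, against 11170, 9699 and 8705 CPM in males, and fell by 0.60 ± 0.13 (adjusted p = 0.00513). For mt-Nd4, whose first part is also in Gm28439, females fell by 0.46 ± 0.10 in TG (adjusted p = 0.00685) and 0.52 ± 0.10 in WT (adjusted p = 0.00282). The cytochrome b gene mt-Cytb (MT:14145-15288, plus strand) averaged 13920 ± 339.1 CPM in TG females and 19370 ± 1925 CPM in TG males, and 14000 ± 1617 CPM in WT females and 19050 ± 1529 CPM in WT males (SD, n = 3 each). These were falls of 0.48 ± 0.11 (adjusted p = 0.00771) and 0.44 ± 0.11 (adjusted p = 0.0111). The first complex I gene, mt-Nd1, fell by 0.49 ± 0.11 in TG females (adjusted p = 0.00692) and by 0.40 ± 0.11 in WT females (adjusted p = 0.0209). Its WT call was lost without WT female replicate 2, WT male replicate 0 or WT male replicate 1 (adjusted p = 0.0569 to 0.0771). Groups did not overlap in any of these comparisons.

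The most abundant member, mt-Co1, had 33570, 32990 and 33790 CPM in TG females, against 43320, 39160 and 37730 CPM in TG males, and 37090, 34240 and 29760 CPM in WT females, against 41180, 39460 and 37840 CPM in WT males. Its log2 differences were -0.26 ± 0.10 in TG (adjusted p = 0.0908) and -0.23 ± 0.10 in WT (adjusted p = 0.135), which did not pass. With the replicate number as a block it passed in both, with adjusted p of 0.031 in TG and 0.0463 in WT, and DESeq2 called it with 0.0114 in TG and 0.0263 in WT. Among the protein genes' own counts, which do not depend on scaling between libraries, mt-Co1 held 40.61, 41.07 and 41.61% in TG females, against 34.9, 35.84 and 37.51% in TG males, and 40.61, 40.8 and 41.17% in WT females, against 34.93, 35.79 and 36.91% in WT males. The share of mt-Nd5 was 7.57 to 8.613% in TG females, against 10.5 to 12.17% in TG males, and 7.659 to 8.413% in WT females, against 10.02 to 11.62% in WT males. Thus the make-up of the mitochondrial mRNA pool differed between the sexes beyond the range of its libraries, with more of it on mt-Co1 and less on mt-Nd5 in females. The share of mt-Cytb averaged 17.1% in TG females and 17.42% in TG males, and 16.97% in WT females and 17.27% in WT males, with overlapping ranges.

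The rRNA genes did not follow the mRNAs. The small-subunit rRNA mt-Rnr1 had 683.5, 782.3 and 622 CPM in TG females, against 549, 526.5 and 498 CPM in TG males, and rose by 0.41 ± 0.13 (adjusted p = 0.0392), a call lost in 6 of 14 alternatives, 5 of which leave out a single TG library. In WT its difference was 0.18 ± 0.13 and did not pass. Both rRNA genes together held 1.83, 1.857 and 2.357% of mitochondrial counts in TG females, against 1.125, 1.184 and 1.345% in TG males, and 1.502, 1.571 and 1.834% in WT females, against 1.049, 1.114 and 1.251% in WT males, with no overlap in either genotype. The sex by genotype interaction called 0 of the 20 genes in edgeR (smallest adjusted p = 0.64), with 0 at an unadjusted p under 0.05 and 0 in DESeq2. Of all genes, 0.00523% were called for it.

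Nephron segment markers moved with sex in the same libraries. In females 4 of 4 distal convoluted tubule and 3 of 4 thick ascending limb markers were higher in each genotype, with 3 of 5 collecting duct markers higher in TG and 5 of 5 in WT, and 2 of 3 podocyte markers higher in each. Proximal tubule markers were mixed, with 3 higher and 3 lower of 8 in TG females and 1 higher and 3 lower in WT females. Summed thick ascending limb markers were 6055 to 6555 CPM in TG females, against 3682 to 4049 CPM in TG males, and 6118 to 7047 CPM in WT females, against 3662 to 5593 CPM in WT males. Markers of endothelium, leukocytes, red cells and fat had no member called between the sexes. The part of these markers in the mitochondrial differences was not tested.

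**Figure D3:**
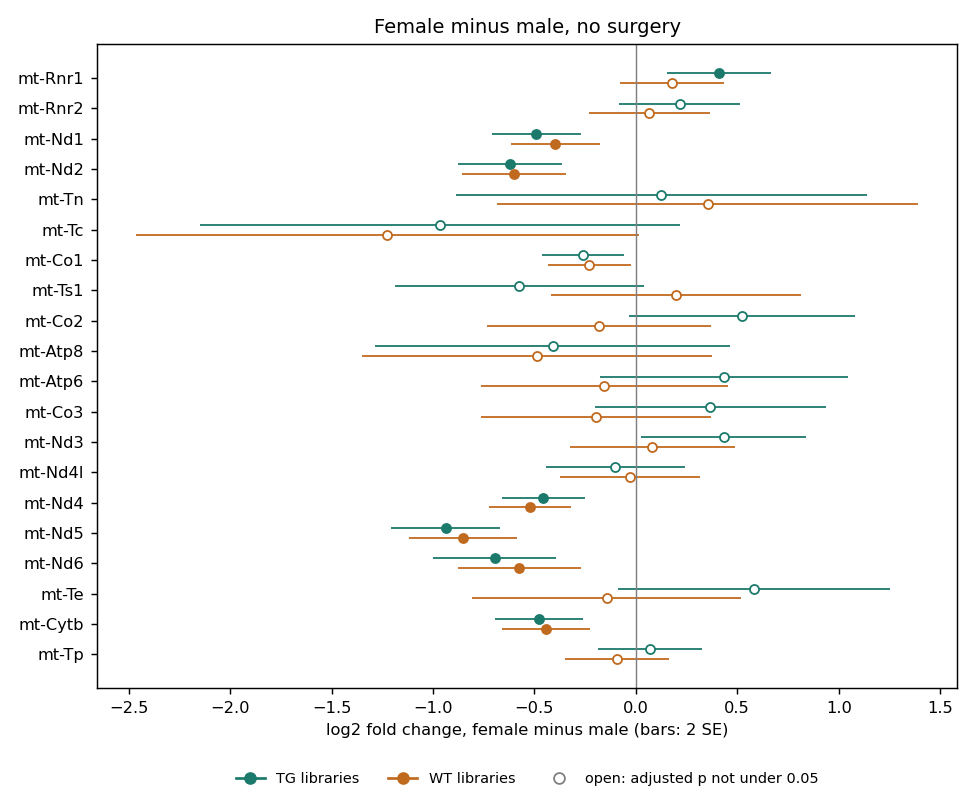
Log2 fold change of the 20 tested mitochondrial genes, female minus male without surgery, in TG and WT libraries (3 per group), with bars of 2 SE and filled points where the adjusted p was under 0.05. The same 6 genes lie left of 0 and are filled in both genotypes, with mt-Nd5 farthest at -0.94 and -0.85 among them, while mt-Rnr1 in TG is the filled point on the right.

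After IRI both rRNA genes were higher than after NX in WT libraries, and no mitochondrial mRNA passed the test in either genotype. Here and between the sexes, rRNA values cover only what was captured in poly-A selected libraries, and total rRNA was not measured. In WT, edgeR called 3 of 20 tested mitochondrial genes higher and 0 lower, namely mt-Rnr1, mt-Rnr2 and mt-Tn, and 0 of the 13 protein genes (smallest adjusted p = 0.198). Of all 19264 genes tested, 16.8% were higher and 14.1% lower. The 3 higher of 20 members are near the share of higher genes, and 0 were lower. In TG, edgeR called 0 of 20, with 1 at an unadjusted p under 0.05 and 0 in DESeq2, where 16.4% of all genes were higher and 13% lower. The median log2 difference of the protein genes was 0.12 in TG and 0.04 in WT. In TG 13 of 13 estimates were above 0, with a smallest adjusted p of 0.13 in edgeR. These genes are cut from shared precursors, so their common sign is not 13 separate observations. The IRI and NX libraries of mt-Co1 and mt-Nd1 did not overlap in TG, but how many of all genes did so was not counted. For mt-Cytb the interval of 2 SE around the difference was -0.20 to 0.44 in TG and -0.28 to 0.36 in WT, and for mt-Co1 0.01 to 0.61 in TG and -0.11 to 0.49 in WT.

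The large-subunit rRNA mt-Rnr2 (ENSMUSG00000064339, MT:1094-2675, plus strand) had a lowest, median and highest level of 1514, 2707 and 7547 CPM in WT IRI libraries, against 1532, 1256 and 951.3 CPM in the 3 WT NX libraries. In TG these were 1447, 1738 and 2516 CPM after IRI, against 1532, 616.7 and 733.2 CPM in the 3 NX libraries. The WT groups met at one IRI library, replicate 1, whose 1514 CPM lay under the highest NX library, and that library is the one with EGFP counts. The difference was 1.43 ± 0.40 in WT (log2, adjusted p = 0.00925), 1.59 ± 0.37 without replicate 1 (adjusted p = 0.00326) and 1.03 ± 0.29 without replicate 5, the library with the highest level (adjusted p = 0.0105). In TG it was 0.93 ± 0.39 (adjusted p = 0.0764), and 1.44 ± 0.43 without TG NX replicate 0 (adjusted p = 0.0214). In that library the rRNA genes held 2.657% of mitochondrial counts, against 1.222 and 1.309% in the other TG NX libraries. It had the highest mt-Rnr2 of its group, and this refit was picked after the values had been seen. Leaving it out raises the difference by construction, so the refit is not evidence of a rise in TG.

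The small-subunit rRNA mt-Rnr1 (ENSMUSG00000064337, MT:70-1024, plus strand) followed the same pattern. Its lowest, median and highest levels were 897.2, 1195 and 4711 CPM in WT IRI libraries, against 811.9, 704.9 and 580.3 CPM in the 3 WT NX libraries, which did not overlap. In TG they were 737.5, 957.2 and 1004 CPM after IRI, against 827.4, 389.5 and 454.6 CPM in the 3 NX libraries, which did. The difference was 1.34 ± 0.42 in WT (adjusted p = 0.0189), 1.46 ± 0.41 without WT IRI replicate 1 (adjusted p = 0.012), 0.76 ± 0.21 without WT IRI replicate 5 (adjusted p = 0.0106), and 0.73 ± 0.40 in TG (adjusted p = 0.188). The ratio of mt-Rnr2 to mt-Rnr1 counts averaged 1.974 ± 0.3669 in TG IRI and 1.683 ± 0.147 in TG NX libraries, and 2.06 ± 0.416 in WT IRI (n = 6) and 1.77 ± 0.1242 in WT NX libraries (SD, n = 3).

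**Figure D4:**
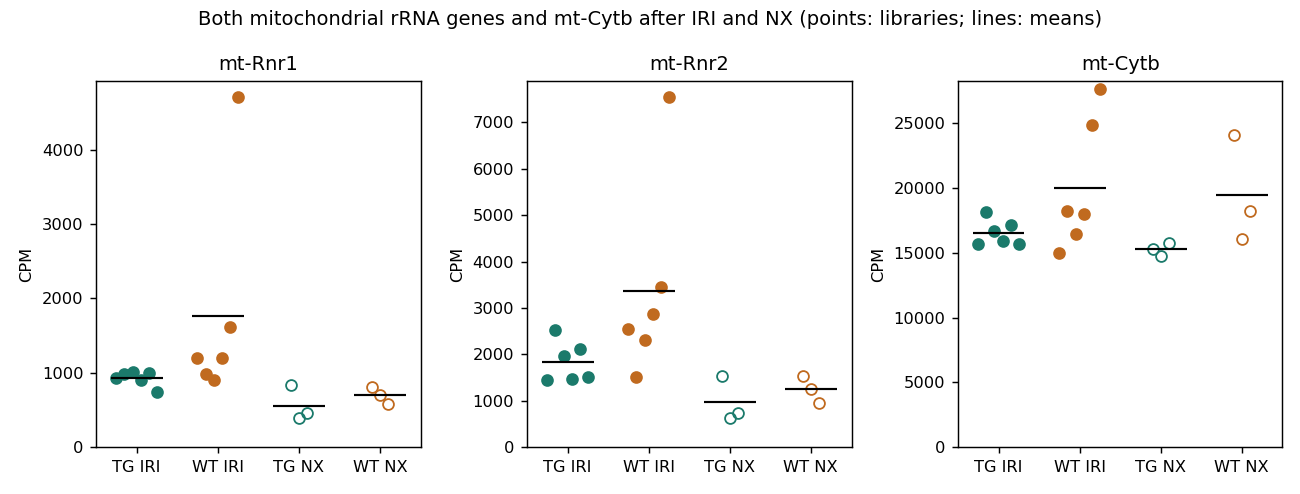
Levels of mt-Rnr1, mt-Rnr2 and mt-Cytb in CPM in each NX and IRI library, with lines for group means (6 libraries per IRI group, 3 per NX group). WT IRI replicate 5 is the single high point of both rRNA panels, at 4711 and 7547 CPM, while mt-Cytb has high points in WT IRI and in WT NX.

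The size of the rRNA differences rested partly on the libraries with high mitochondrial shares, and their calls on the NX libraries. Without WT IRI replicates 4 and 5 and WT NX replicate 0, which were left out for their measured share and after the data had been seen, mt-Rnr1 differed by 0.73 ± 0.23 (adjusted p = 0.0242) and mt-Rnr2 by 1.06 ± 0.33 (adjusted p = 0.0243) in WT. In the same fit mt-Tp fell by 0.41 ± 0.12 in WT (adjusted p = 0.0189). The TG comparison, which kept all its libraries, passed there for mt-Rnr1 (0.72 ± 0.19, adjusted p = 0.00683), mt-Rnr2 (0.92 ± 0.27, adjusted p = 0.0144) and mt-Co1 (0.30 ± 0.07, adjusted p = 0.00454), since the spread is estimated over all libraries of the fit. The WT calls were lost with the replicate number as a block, at adjusted p of 0.0992 for mt-Rnr1, 0.0502 for mt-Rnr2 and 0.0581 for mt-Tn. All 3 were also lost without WT NX replicate 2, mt-Rnr1 and mt-Tn without WT NX replicate 1, and mt-Tn without WT NX replicate 0.

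The tRNA gene mt-Tn, for asparagine, had 17 to 42 counts in WT IRI libraries, against 9, 12 and 8 counts in WT NX libraries, and never reached 1 CPM in any library. Its difference of 1.56 ± 0.52 in WT (adjusted p = 0.0269) was lost in 6 of 17 alternatives. In TG it had 6 to 39 counts after IRI, against 19, 11 and 7 counts after NX, a difference of 0.54 ± 0.50 that did not pass. With 71 bases the gene is shorter than a read, so its counts are not read as a level of mature tRNA. The gene lies at MT:5089-5159 on the minus strand, inside a cluster of tRNA genes on that strand, and is shown because it is the only tRNA gene called by edgeR with all libraries and the filter on low counts.
mt-Tn: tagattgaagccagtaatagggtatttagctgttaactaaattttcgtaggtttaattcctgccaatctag

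Differences between the genotypes in the response to injury were tested by the interaction, which called 0 of 20 mitochondrial genes in edgeR (smallest adjusted p = 0.672), with 0 at an unadjusted p under 0.05, 0 in DESeq2 and 0% of all genes. For mt-Rnr2 the interaction was -0.50 ± 0.52, and for mt-Rnr1 -0.60 ± 0.55. So the call in WT and its absence in TG do not show that the genotypes differ. Red cell markers moved with IRI, with 4 of 5 higher in TG and 5 of 5 in WT. Their sums were 28.6 to 148.4 CPM after IRI and 3.638 to 18.71 CPM after NX in TG, and 109.5 to 1298 CPM after IRI and 35.58 to 119.3 CPM after NX in WT. Neutrophil and macrophage markers had 3 of 5 tested members higher in each genotype and 1 lower in TG, and proximal tubule markers had 3 of 8 lower in TG and 4 of 8 lower in WT. Of 4 thick ascending limb markers, 0 were higher and 1 lower in TG, and 3 higher and 1 lower in WT. Of 5 collecting duct markers, 0 were higher and 1 lower in TG, and 1 higher and 1 lower in WT. Endothelial markers had 1 of 4 higher in TG and 2 in WT, podocyte markers 0 of 3 in TG and 2 in WT, and 0 of 4 fat markers were lower in TG and 3 in WT. Summed fat markers were 663 CPM in WT NX replicate 0, against 15.29 and 18.12 CPM in the other WT NX libraries. In WT IRI libraries they were 44.39 to 78.85 CPM, above those other NX libraries. The part of any of these in the rRNA differences was not tested.

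**Figure D5:**
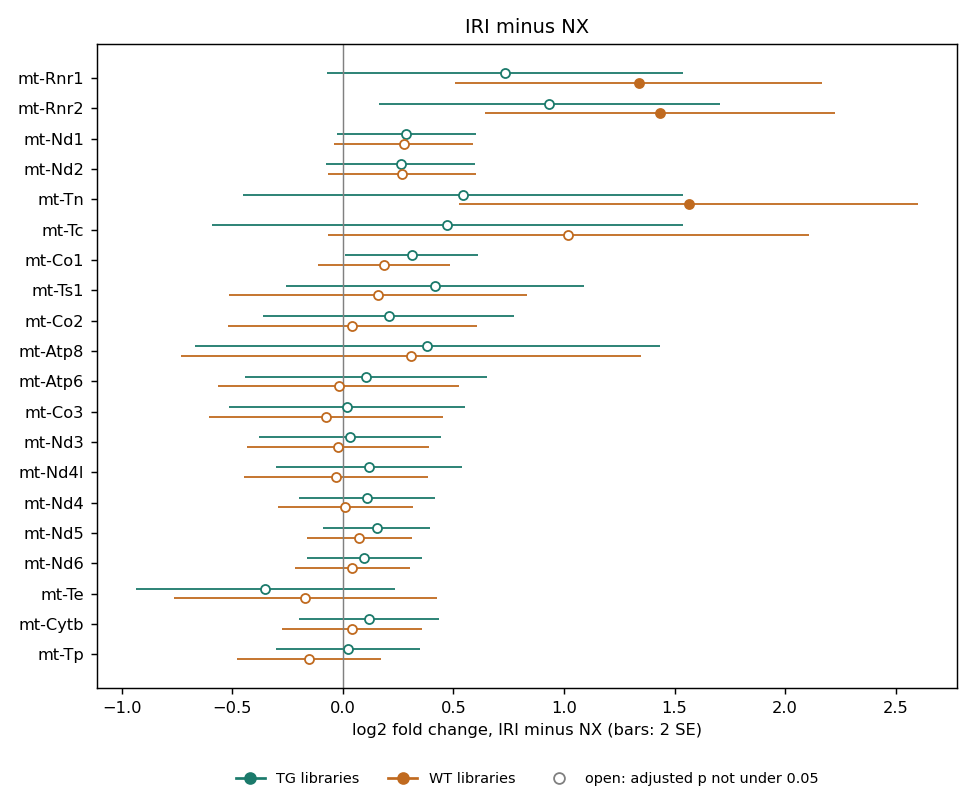
Log2 fold change of the 20 tested mitochondrial genes, IRI minus NX, in TG and WT libraries (6 IRI and 3 NX libraries each), with bars of 2 SE and filled points where the adjusted p was under 0.05. The open points of the protein genes lie between -0.08 and 0.38, and the filled points are mt-Rnr1, mt-Rnr2 and mt-Tn in WT at 1.34, 1.43 and 1.56.

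No mitochondrial gene was called between TG and WT in any of the 4 settings, where edgeR called 0.00523% of all genes in no-surgery males, 0.0418% in no-surgery females, 0.0117% after NX and 0.0701% after IRI. The smallest adjusted p among the members was 0.916 in males and 0.573 in females without surgery, 0.7 after NX and 0.252 after IRI. At an unadjusted p under 0.05 there were 5 of 20 members in males, 0 in females, 6 after NX and 7 after IRI, against 5.22% of all genes tested in males, 9.09% in females, 6.77% after NX and 14.1% after IRI. DESeq2 called 1 member after NX and 0 in the other 3 settings.

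After IRI the estimates of all 13 protein genes were below 0 in TG, with a median log2 difference of -0.31, and those of mt-Rnr2 (-0.90 ± 0.31, adjusted p = 0.252) and mt-Rnr1 (-0.95 ± 0.35, adjusted p = 0.269) were larger. Levels of mt-Rnr1 and mt-Rnr2 in TG IRI libraries, given above, overlapped those of WT IRI libraries. Without WT IRI replicates 4 and 5, the libraries with the highest mitochondrial shares, 8 of the 13 estimates were below 0 and 5 above, with a median of -0.03. Without replicate 5 alone, mt-Rnr1 differed by -0.35 ± 0.13 (adjusted p = 0.386) and mt-Rnr2 by -0.47 ± 0.19 (adjusted p = 0.413). After NX the 13 estimates were below 0 as well, with a median of -0.37. Without WT NX replicate 0, 11 were below 0 and 2 above, with a median of -0.17. The libraries left out in these refits had the highest mitochondrial shares of their WT groups and were chosen after the data had been seen. Leaving them out lowers the WT level by construction. These refits therefore show only how far the differences rest on those libraries. The largest gap relative to its error was in mt-Tp, the proline tRNA gene, which had 86.98, 75.77 and 78.07 CPM in TG, against 111, 101.5 and 120.8 CPM in WT. These groups did not overlap, and the difference of -0.47 ± 0.10 did not pass in edgeR (adjusted p = 0.7). DESeq2 called it (adjusted p = 0.0387), as did edgeR without a count filter (adjusted p = 0.0468). The 13 genes are cut from shared precursors, so their common sign is not 13 separate observations. Without WT IRI replicates 4 and 5, or without WT IRI replicate 1, edgeR still called 0 of the members after IRI.

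In no-surgery males, 4 of the 5 members at an unadjusted p under 0.05 were mt-Co2, mt-Co3, mt-Atp6 and mt-Nd3, whose windows are almost wholly shared with nuclear copies. The gene mt-Nd4l, shared to 97.973%, had a difference of 0.13 ± 0.17 (adjusted p = 0.958). The level of mt-Co2 was 42.68, 35.26 and 38.75 CPM in TG males, against 64.66, 35.09 and 105.1 CPM in WT males. The values of mt-Atp6 were 33.15, 30.56 and 29.45 CPM in TG males, against 45.29, 23.85 and 81.1 CPM in WT males. Replicate 2 of the WT males was the high library for both, and the groups overlapped.

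The tRNA genes gave few counts, almost all from a single strand. The 8 genes on the minus strand held 168555 counts over the 30 libraries, or 99.85%, and the 14 on the plus strand held 250, or 0.1481%. Of the minus-strand counts 160252 were from mt-Tp (MT:15356-15422), shown here as the member that makes up nearly all of this class.
mt-Tp: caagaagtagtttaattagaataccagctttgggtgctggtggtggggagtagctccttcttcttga
Besides mt-Tp, mt-Ts1 and mt-Te reached a mean of 1 CPM in a group, with highest group means of 5.837 and 2.21 CPM against 111.1 CPM for mt-Tp. The genes mt-Tf, mt-Tv, mt-Td and mt-Tk had 0 counts in every library. Since the filter kept 5 of the 22 tRNA genes, the other 17 were not tested. Whether the counting used strand is not stated in the sources used here, so counts of minus-strand tRNA genes cannot be told apart from those of transcripts of the other strand. All tRNA genes, at 59 to 75 bases, are also shorter than a read of 150 bases. Their counts may come from longer RNAs and are not read as levels of mature tRNA.

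The nuclear genes that serve these transcripts were described by lists, whose counts stand against 16.4% of all genes higher and 13% lower after IRI in TG and 16.8% higher and 14.1% lower in WT. All libraries were used, among them WT IRI replicate 5. Its summed RNA processing genes were the lowest of its group, at 933.8 CPM (others 1052 to 1073). The same held for transcription and replication genes, at 252.8 CPM (others 284.4 to 296). After IRI, 8 of 31 genes of mitochondrial RNA processing and stability were lower and 2 higher in TG, and 9 lower and 2 higher in WT. The median log2 difference of these genes was -0.12 in TG and -0.11 in WT, against -0.01 over nuclear genes in each. Those with the smallest p in WT were Mrm2, a methyltransferase of the large-subunit rRNA, with 3.656 ± 0.8716 CPM after IRI and 7.664 ± 1.523 CPM after NX (-1.07 ± 0.18, adjusted p = 0.000178), Fastkd1, an RNA-binding protein (-0.46 ± 0.11), Gtpbp3, a tRNA-modifying enzyme (-0.46 ± 0.12), and Pde12, which removes poly-A tails (0.51 ± 0.12). Among 19 genes of mitochondrial transcription and replication, 7 were lower in TG and 2 in WT, with none higher and a median of -0.22 in each. The 2 in WT were Twnk, the helicase of mitochondrial DNA, with 18.31 ± 3.091 CPM after IRI and 28.07 ± 0.5897 CPM after NX, and Mterf2, of the termination factor family. The RNA polymerase gene Polrmt did not pass in either genotype (-0.12 ± 0.09 in TG and -0.22 ± 0.09 in WT).

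Of 75 nuclear subunits of the respiratory chain and ATP synthase, 3 were lower after IRI in TG (median -0.06) and 11 in WT (median -0.11), with none higher. Sdhd and Sdhc of complex II, which has no mitochondrially encoded subunit, and Ndufb4 and Ndufab1 of complex I led in WT, with differences of -0.34 ± 0.07, -0.36 ± 0.08, -0.28 ± 0.08 and -0.25 ± 0.07. Of 78 mitochondrial ribosomal protein genes, 13 were lower and 1 higher in TG (median -0.08), and 18 lower and 2 higher in WT (median -0.11), with Mrpl49, Mrps2, Mrpl10 and Mrpl51 between -0.39 and -0.32. Among 12 regulators of mitochondrial biogenesis, 4 were higher and 2 lower in TG (median -0.05), and 4 higher and 1 lower in WT (median 0.01). The 4 higher in WT were Myc, a growth-related transcription factor (4.05 ± 0.26), Pprc1, a coactivator (1.08 ± 0.22), Gabpb1 (0.80 ± 0.12) and Nrf1 (0.60 ± 0.12), both parts of factors that act on nuclear genes for mitochondria. The coactivator gene Ppargc1a was lower in TG (-0.33 ± 0.10, adjusted p = 0.0164) and not called in WT (0.03 ± 0.10). Of the nuclear copies, Gm29216 was higher in TG (0.64 ± 0.19, adjusted p = 0.0171) and 0 were called in WT, where Gm29216 had the smallest p.

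Between the sexes the same lists were counted, where 9.87% of all genes were higher and 11.3% lower in TG females, and 10.1% higher and 11.3% lower in WT females. In TG females 23 of 78 ribosomal protein genes were lower and 3 higher, and 10 of 75 respiratory subunits lower and 2 higher. In WT females 6 ribosomal protein genes were lower and 8 higher, and 3 respiratory subunits lower and 8 higher. The median of the ribosomal protein genes was -0.17 in TG and -0.0046 in WT, and that of the respiratory subunits -0.10 in TG and 0.05 in WT. The sex by genotype interaction called 0 genes of any list. Of the 19 transcription and replication genes 1 was lower in each genotype, with Tfam, which packs and activates mitochondrial DNA, at -0.17 ± 0.07 in TG and -0.21 ± 0.07 in WT, neither of which passed. Among RNA processing genes 4 were lower and 0 higher in TG, and 3 lower and 2 higher in WT, and among biogenesis regulators 1 was lower and 4 higher in TG, and 2 lower and 2 higher in WT. Of the nuclear copies 0 were called in TG and 2 were lower in WT. No gene of these lists was called between TG and WT in any setting.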

How the data were processed

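The authors deposited 2 tables of raw counts per gene. Per the submitters' processing notes, reads were trimmed with fastp 0.23.2 and aligned with STAR 2.7.0 to GRCm39. Per the file headers, featureCounts 2.0.3 counted exons by gene in Ensembl release 112 with an added EGFP entry. The option settings are not legible, so the use of strand, pairs and reads with several positions is not given in the sources used here.

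Symbols came from GENCODE M21 for 90.8% of 57133 identifiers. CPM are counts scaled by TMM library sizes within each table. Differences were tested two-sided with edgeR 4.0.16 (R 4.3.3, quasi-likelihood, TMM, filterByExpr, Benjamini-Hochberg over all genes tested, adjusted p under 0.05). The 12 no-surgery libraries shared a fit, as did all 18 others for IRI against NX. TG against WT used the 6 NX or the 12 IRI libraries alone. The filter kept 20 of the 37 genes. DESeq2 1.42.0 and other scaling, filter and library choices were alternatives, and the test was checked on simulated counts. Shares of counts have no test. No 2 libraries of a table were copies of each other over 219 pairs (chi-square per degree of freedom 15.4 to 423.6). Deviations of same-numbered libraries from their group means correlated positively in all pairs for no-surgery males (0.11 to 0.55) and no-surgery WT (0.12 to 0.42). Values for the other groups are given below. Any such pairing is read from the data, since the labels state none. Named genes are all protein and rRNA genes, tRNA genes with a group mean of 1 CPM, and up to 4 members of each nuclear list by p in IRI against NX in WT. Beyond that rule, mt-Tn, Polrmt, Tfam, Ppargc1a and the count of Gm28438 were chosen after their values were seen. The members and lists were chosen with earlier results of these data known. Copies were matched by placing each transcript without gaps on each mitochondrial gene, with at least 90% identity over the overlap, and 1 listed gene matched no mitochondrial gene.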

Additional observations from a re-analysis of the deposited data

Results flagged for a closer look

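A library's value was marked where its gap to the nearest library of a 6-library group, divided by the group's range, was above Dixon's 95% limit of 0.625. Of 76 measures by group that were checked, 7 passed. Chance marks about 1 in 20 of separate measures, but many of these measures rest on the same counts, so that rate is no yardstick here.

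In WT IRI, 6 of the marked values came from replicate 5. Its rRNA genes held 1.187% of all counts (0.2451 to 0.4958% in the other 5 libraries) and 7.293% of mitochondrial counts (2.265 to 3.744%). It also had the highest mt-Rnr1 (4711 CPM, others 897.2 to 1613), mt-Rnr2 (7547 CPM, others 1514 to 3443), mt-Nd3 (18.08 CPM, others 8.702 to 11.94) and mt-Ts1 (1.977 CPM, others 0.7288 to 1.18). In TG IRI, mt-Rnr1 was low in replicate 5, at 737.5 CPM, where the other 5 libraries had 904.4 to 1004 CPM.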

How the results depend on the processing

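Direction was kept by every mitochondrial gene called under every alternative run, and no result turned round. For TG against WT after NX, 0 calls became 1 without a count filter and 1 in DESeq2, both mt-Tp. For IRI against NX in WT, 3 calls became 0 with the replicate block, and 0 to 3 with 1 library left out. For IRI against NX in TG, 0 became 3 without WT IRI replicates 4 and 5 and WT NX replicate 0, an alternative chosen after seeing the data, and 0 to 1 with 1 library left out. The block called 8 of 20 in TG and 7 of 20 in WT for female against male, and changed no call other than those named here and mt-Co1. Correlations of same-numbered libraries were also positive in all pairs of females (0.089 to 0.35), no-surgery TG (0.084 to 0.41) and NX (0.06 to 0.22). The same held for WT IRI and NX (0.066 to 0.14), with 6 of 6 libraries closest to their own number. The lowest was negative in IRI (-0.051 to 0.18) and in TG IRI and NX (-0.027 to 0.13). The labels state no pairing, and these values do not settle it. So whether calls lost under the block are weaker, or calls gained stronger, is not decided here. Without the rRNA genes the mean mitochondrial share of TG females was 8.573%. Taken per kb, the share of mt-Co1 among protein genes was 33.47% in TG females, 33.2% in WT females, 29.28% in TG males, 29.12% in WT males, 27.73% in TG IRI, 27.73% in WT IRI, 25.84% in TG NX and 26.6% in WT NX. Causes were not tested. Few counts limit precision in 4 of the 5 tRNA genes tested, mt-Tp being the exception, and reads shared with annotated nuclear copies limit 7 protein genes.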
